A study of Caenorhabditis elegans with 2 samples.

Results

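The col genes are the large family of Caenorhabditis elegans genes that carry a number after the name col and, nearly all, encode collagens of the cuticle. Members were taken from the Ensembl WBcel235 annotation as the protein-coding genes whose whole symbol is col- followed by digits, without col-99, which codes for a transmembrane collagen. The rule gave 155 of the 19973 protein-coding genes on the 6 nuclear chromosomes. Of these, 153 had an annotated protein with at least 30 Gly-X-Y triplets, the repeat of the collagen triple helix, and the median was 51 triplets in 304 residues. The exceptions were col-55, with 20 triplets in 154 residues, and col-17, whose annotated reading frame held none. Chromosome IV carried 40 members, V 31, X 27, II 24, I 21 and III 12.

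The cuticle is the extracellular skeleton that the epidermis lays down anew at every molt, and its main component is collagen. Cuticle collagen genes are transcribed in waves ahead of each molt. Some are restricted to one stage, such as col-19 in adults and col-2 in dauer larvae. ELT-3 belongs to the GATA family of zinc finger proteins and acts in the main body epidermis, and col-144 has been used in earlier work as a target gene of ELT-3. GATA factors recognise the word GATA with preferred neighbours, written WGATAR, where W is A or T and R is A or G.

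Chromatin bound by ELT-3 was sequenced (ChIP-seq) from whole first-stage (L1) larvae of mixed sex, in 1 group with 2 biological replicates. The worms were of strain OP75, which carries the mutation unc-119(ed3) and the transgene wgIs75, a source of ELT-3 with GFP and FLAG at its C terminus. Both replicates carried the transgene and came from this 1 strain, and no untagged group was analysed here. Epidermal and other nuclei were not separated, so a region cannot be assigned to a tissue.

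Each region in the authors' lists has a signal value, a score of unstated scale. The list from both replicates pooled held 30000 regions with signal from 13.5 to 174, that of replicate 1 held 30000 from 8.12 to 86.8, and that of replicate 2 held 15646 from 8.71 to 91.4. These long lists are titled as peaks and background together. The optimal set, the peaks that passed the authors' test of reproducibility (IDR), consisted of the strongest pooled regions, down to a signal of 42.6. A region was given to every gene that had the summit inside it or within 2 kb of its 5′ end, so 1 region can count for several genes. Signal values are compared within a list, and ranks count from the strongest region of that list. The number of reads per library is unknown.

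The 5 col genes with an optimal peak were col-62, col-166, col-167, col-103 and col-94. The sequences of the peaks are shown for 3 of them, because they differ in whether they hold a GATA word. Each is the whole region of 250 bases in ce11, written 5′ to 3′ on the strand of the gene, with WGATAR on either strand in capitals.
col-167, chrX:6323225-6323474, plus strand: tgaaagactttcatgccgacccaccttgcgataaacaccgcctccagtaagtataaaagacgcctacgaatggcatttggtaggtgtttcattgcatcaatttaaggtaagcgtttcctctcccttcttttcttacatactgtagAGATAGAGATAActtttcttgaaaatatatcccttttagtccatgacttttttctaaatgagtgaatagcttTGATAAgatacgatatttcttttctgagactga
col-166, chrX:6279589-6279838, plus strand: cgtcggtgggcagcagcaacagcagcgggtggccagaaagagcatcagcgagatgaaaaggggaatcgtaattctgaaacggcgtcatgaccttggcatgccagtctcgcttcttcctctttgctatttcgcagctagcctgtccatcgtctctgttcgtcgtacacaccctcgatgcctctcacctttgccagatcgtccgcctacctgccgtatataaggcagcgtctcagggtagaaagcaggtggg
col-103, chrIV:763512-763761, minus strand: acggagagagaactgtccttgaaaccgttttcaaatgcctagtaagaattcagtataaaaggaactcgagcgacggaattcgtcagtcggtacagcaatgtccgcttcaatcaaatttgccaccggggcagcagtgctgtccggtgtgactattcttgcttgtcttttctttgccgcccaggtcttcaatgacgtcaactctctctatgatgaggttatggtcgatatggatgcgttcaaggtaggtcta

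The col-167 peak held 3 WGATAR words, of which AGATAG and AGATAA stood side by side near the summit. Among all pooled regions of this length, 44.9% held at least 1 such word and 4.26% held 3 or more. In the optimal set the shares were 66.8% and 25.7%. The peaks of col-166 and col-103 held none, and the absence of these letters says nothing about which protein was bound there. The GC content was 55.6% at col-166 and 46.8% at col-103, against 36.8% at col-167.

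In the lists, col-166 had a pooled signal of 49.01 (rank 146), with 30.8 in replicate 1 (rank 83) and 17.2 in replicate 2 (rank 745). Its summit lay between genes, 302 bp upstream of the 5′ end on chromosome X. col-167 lies farther along the same chromosome and had a pooled signal of 48.93 (rank 148), with 18.9 in replicate 1 (rank 853) and 25.3 in replicate 2 (rank 155). Its summit lay 138 bp upstream. These genes thus had nearly equal pooled values and opposite orders in the replicates. Both have an annotated gene length of 906 bp and a protein of 301 residues.

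The strongest region near a col gene was that of col-62 on chromosome I, from 7404738 to 7404987, with a pooled signal of 52.6 (rank 112). Replicate 2 placed it high, at 41.8 (rank 15). In replicate 1 the nearest summit lay 145 bp away, beyond the 100 bp used for matching, and the strongest region in the col-62 window there had a signal of 19.1 (rank 815). The pooled summit stood 489 bp upstream of col-62 but 87 bp upstream of the neighbour C15A11.7, so the peak cannot be given to either gene alone.

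The col-103 peak had its summit 41 bp downstream of the 5′ end, in the coding part of exon sequence, on chromosome IV. Its values were 45.5 pooled (rank 201), 25.9 in replicate 1 (rank 174) and 20.8 in replicate 2 (rank 301). It was the member ranked most alike by both replicates among the 5.

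The col-94 peak lay farthest from its gene, 1764 bp upstream in an intron of the dynein heavy chain gene dhc-4 on chromosome III. Its pooled signal was 44.3 (rank 217), with 11.9 in replicate 1 (rank 9317) and 29.8 in replicate 2 (rank 77). The ranks in the replicates thus lay far apart, near the top of one list and well down the other. The summit also lay within 200 bp of an annotated snRNA gene, as did 5 peaks of the optimal set in all (1.98%), and without such peaks the optimal set reached 4 members. Part of the region matched 15 other places in the genome at 95% identity or more over at least 50 bp. Reads from such copies can be placed on any of them, and the part of this in the signal was not tested.

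**Figure D1:**
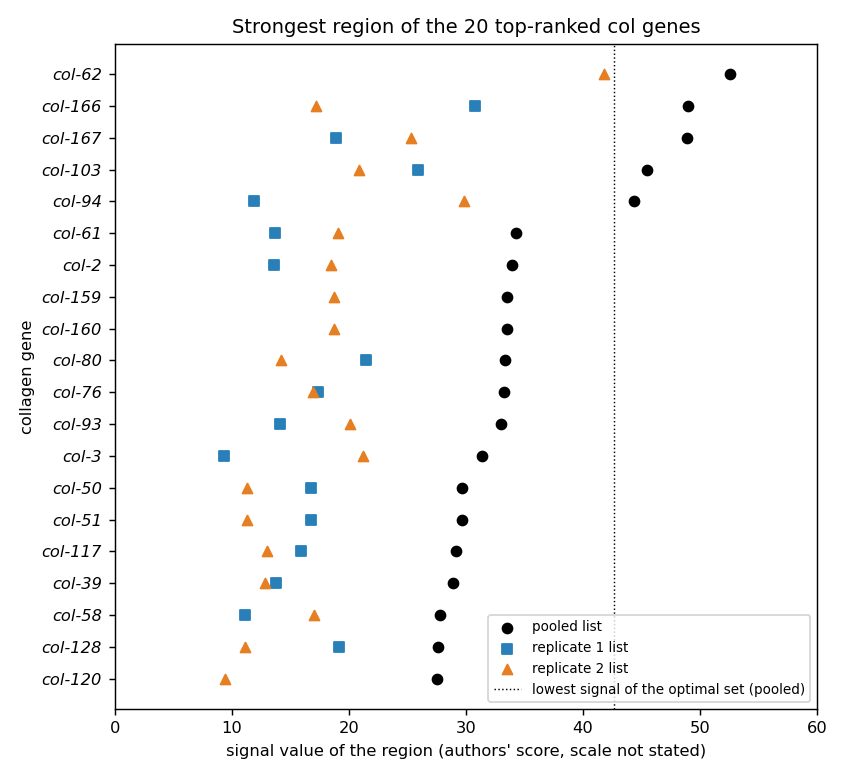
Signal value (authors' score, horizontal axis) of the strongest region of the 20 col genes ranked highest in the pooled list (vertical axis), with the matched region in each replicate within 100 bp where there was one. The dotted line marks 42.6, the lowest signal of the optimal set, and 5 genes lie to its right.

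Below the optimal set the next member was col-61, with a pooled signal of 34.3 (rank 527), so no col gene stood between 44.3 and that value. col-61 had 13.7 in replicate 1 (rank 4834) and 19.1 in replicate 2 (rank 435), and its summit lay 506 bp upstream. For col-2, the dauer collagen, the values were 34.0 pooled (rank 552), 13.6 in replicate 1 (rank 5070) and 18.5 in replicate 2 (rank 506). The col-2 summit stood 410 bp upstream, but 276 bp from the 5′ end of the kinetochore gene ndc-80. At both of these regions replicate 2 gave a far higher rank than replicate 1. Another region of col-61, 400 bp downstream of its 5′ end, went the other way. It had 28.8 pooled (rank 1161), 21.3 in replicate 1 (rank 459) and no match in replicate 2.

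Among the next regions, several were shared between neighbours. The region in an intron of col-159, 1723 bp downstream of its 5′ end, also lay within 2 kb of col-160 (33.5 pooled, rank 595, 18.8 in replicate 2 and no match in replicate 1). A region in the coding exon of col-51, 208 bp downstream of its 5′ end, lay 1503 bp upstream of col-50 (29.7 pooled, rank 997, 16.8 in replicate 1 and 11.3 in replicate 2). A region near col-117 (29.1 pooled, rank 1103) was shared with col-3, and one near col-39 (28.9 pooled, rank 1147) with col-80. The pair col-95 and col-96 shared a weaker one, at 22.5 (rank 4114). In all, 21 of 250 pooled regions lay in the windows of more than 1 member, and 23 members took part. Such pairs are not separate cases of binding.

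Closer to 5′ ends, col-80 had a region 114 bp upstream, in an intron of dph-2, a diphthamide synthesis gene. Its signal was 33.3 pooled (rank 608), 21.5 in replicate 1 (rank 439) and 14.2 in replicate 2 (rank 1802). col-93, the neighbour of col-94, had a region 249 bp upstream, also within an intron of dhc-4, with 33.0 pooled (rank 635), 14.1 in replicate 1 and 20.1 in replicate 2. Farther out, col-76 had a region 1325 bp upstream in an intron of the hedgehog-related gene qua-1, with 33.2 pooled (rank 615), 17.4 in replicate 1 and 16.9 in replicate 2. A region past the 3′ end of col-3, 1424 bp from its 5′ end, had 31.4 pooled (rank 773), 9.35 in replicate 1 and 21.2 in replicate 2. col-128 had 27.6 pooled (rank 1421), 19.1 in replicate 1 and 11.1 in replicate 2, in its own coding exon, and col-58 had 27.8 pooled (rank 1361), 11.1 in replicate 1 and 17.02 in replicate 2, in a coding exon of F26B1.5. At col-3, as at col-104 (26.5 pooled, 8.71 in replicate 1 and 17.8 in replicate 2), replicate 2 ranked the region far higher (rank 271 at col-3 and 618 at col-104) than replicate 1 (rank 20941 and 25352).

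None of the few members picked for naming as reporter or ELT-3 target genes had an optimal peak. The optimal set reached only 1.39% of all protein-coding genes, so a list this short cannot show a lack of such peaks. col-10, whose promoter drives expression in the epidermis, had a region 275 bp upstream with 27.3 pooled (rank 1492), 9.52 in replicate 1 and 13.99 in replicate 2. A second col-10 region, 1158 bp upstream, had 20.9 pooled (rank 5972), 18.8 in replicate 1 (rank 890) and no match in replicate 2. col-120 had 27.5 pooled (rank 1448), 9.43 in replicate 2 and no match in replicate 1, at a summit in a coding exon of its neighbour flh-1. For col-144 the strongest of 3 regions lay 8 bp upstream, with 21.5 pooled (rank 5215) and no match within 100 bp in either replicate. A weaker region 232 bp upstream of col-144 held WGATAR and was matched in both, with 16.5 pooled (rank 16272), 14.1 in replicate 1 and 9.94 in replicate 2. The pooled value of that region was below the median of the pooled list, 16.9. The adult gene col-19 had 16.6 pooled (rank 16013), 1818 bp upstream in a coding exon of ZK1193.2. col-12 had no pooled region and a single region in replicate 1, at 9.79.

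Across the family, the optimal set reached 5 of 155 col genes (3.23%, 95% exact binomial interval 1.06 to 7.37), against 1.39% of all protein-coding genes. The background share lies inside that interval, so a difference was not detectable with this number of peaks. The count was still 5 among the 500 strongest pooled regions, where all genes had 2.65%. Among the 1000 strongest pooled regions the count was 15 of 155 (9.68%, 5.52 to 15.5), against 5.29% of all genes. Among the 5000 strongest it was 47 (30.3%, 23.2 to 38.2), against 23.4% of all genes. In the whole pooled list 131 members (84.5%, 77.8 to 89.8) had a region, against 79.2% of all genes.

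Col genes are short, with a median annotated length of 1219 bp against 2027 bp over all genes, so a window that includes the gene body is smaller for them. With 2 kb to either side of the 5′ end alone, a window of equal length for every gene, the optimal set reached the same number, 5, against 1.21% of all genes. The 1000 strongest regions reached 15, against 4.33%, and the 5000 strongest reached 46 (29.7%, 22.6 to 37.5), against 18.8%. In the whole list the count was 130 (83.9%, 77.1 to 89.3), against 73% of all genes. The member share was thus above that of all genes at each of these depths. At the optimal set its interval, 1.06 to 7.37, included the 1.21% of all genes, so no difference was detectable there. These counts are cumulative, so the share in the whole list includes the strongest regions. They do not describe the lowest part alone, in a list that holds background by its title. The intervals cover counting error only and treat genes as independent, although 50 members had another within 5 kb.

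**Figure D2:**
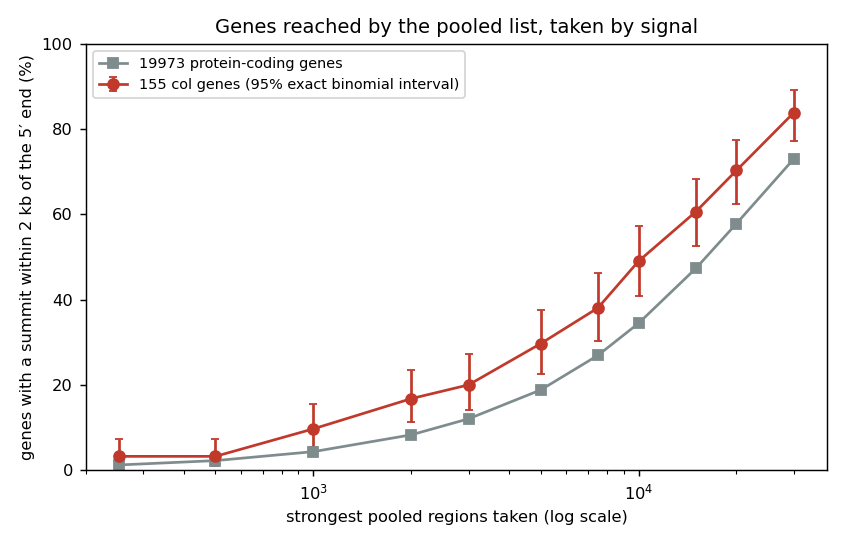
Share of genes (vertical axis, percent) with a summit within 2 kb of the 5′ end against the number of strongest pooled regions taken (horizontal axis, log scale), for 155 col genes with 95% exact binomial intervals and for 19973 protein-coding genes. The col genes run above all genes at every number taken, from 3.23% against 1.21% at the size of the optimal set to 83.9% against 73% at 30000. At the size of the optimal set the interval, 1.06 to 7.37, includes the share of all genes.

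Over the members that had a pooled region, the strongest one had a median signal of 19.4 (quartiles 16.6 and 23.6, n = 131). The median over all genes with a region was 18.9 (quartiles 16.3 and 22.5, n = 15822). With 2 kb to either side of the 5′ end alone the medians were 19.4 for members (n = 130) and 18.4 for all genes (n = 14585). The median of members was thus slightly higher in both windows, and the quartiles given for the first overlapped widely. These medians leave out genes without a region. By chromosome the median ran from 17.5 on X to 22.7 on III, and chromosome X nevertheless held col-166 and col-167. No pooled region lay in the windows of 24 members, and 10 of these, among them col-13, col-92 and col-105, had none in either replicate.

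Each replicate on its own gave a similar share of members as the pooled list or a lower one. Replicate 1 had a region at 132 members (85.2%), against 79.6% of all genes, and replicate 2, whose list is shorter, at 95 (61.3%), against 55.9%. A region in both replicates with summits within 100 bp was found for 40 members (25.8%, 19.1 to 33.4), against 21.1% of all genes. The background share again lies inside the interval.

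The col genes at the top of each replicate were not the same. Among as many strongest regions of replicate 1 as the optimal set holds were those of col-103 and col-166. Among the same number from replicate 2 were those of col-62, col-94 and col-167, with none in common. These were 1.29% and 1.94% of members, against 1.31% and 1.47% of all genes. Over all genes, 119 were shared at this depth, 45.4% of those of replicate 1 and 40.5% of those of replicate 2. When 1000 regions were taken from each, 11 and 17 members were reached (7.10% and 11.0%), against 5.34% and 5.41% of all genes. The replicates shared 6 members at this depth, 54.5% and 35.3% of each list, against 37.7% and 37.2% over all genes. With 2 and 3 members at the top, the lack of overlap rests on very few genes.

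Of the 250 pooled regions in member windows, 150 (60%) had a match in replicate 1, 97 (38.8%) in replicate 2 and 42 (16.8%) in both, while 45 (18%) had a match in neither. The other pooled regions had 58.2%, 34.8%, 15.01% and 22.0%. Spearman's rho between the replicates was 0.306 over the 42 regions and 0.289 over the other 4466, a description in which the regions share their libraries and had all passed the cut of 3 lists.

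**Figure D3:**
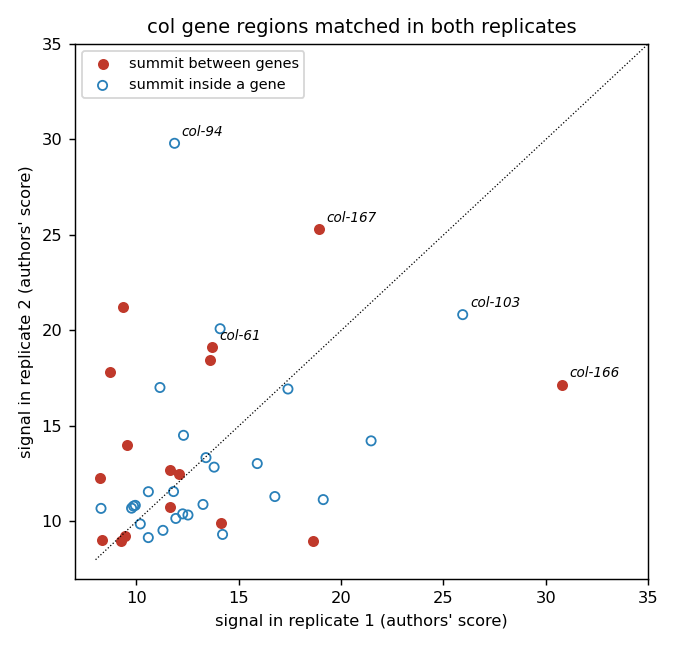
Signal value in replicate 2 (vertical axis) against replicate 1 (horizontal axis), both in the authors' score, for the 42 col gene regions matched in both replicates. Filled points have their summit between genes and open points inside a gene. The scores come from separate lists whose scales may differ, so the dotted line of equal values is a guide to the eye. The 5 strongest pooled regions among them are named, and col-94 lies farthest above the line, at 11.9 and 29.8.

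Summits near col genes were densest just upstream of the 5′ end, as were those over all genes. From 500 bp upstream to the 5′ end there were 0.606 pooled summits per kb per col gene, against 0.354 per kb over all genes. In the other 500 bp steps out to 2 kb the density was between 0.335 and 0.490 for col genes and between 0.301 and 0.327 for all genes. In those 500 bp upstream, a stretch singled out after the values were seen, 46 members (29.7%, 22.6 to 37.5) had a pooled summit, against 17.5% of all genes.

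**Figure D4:**
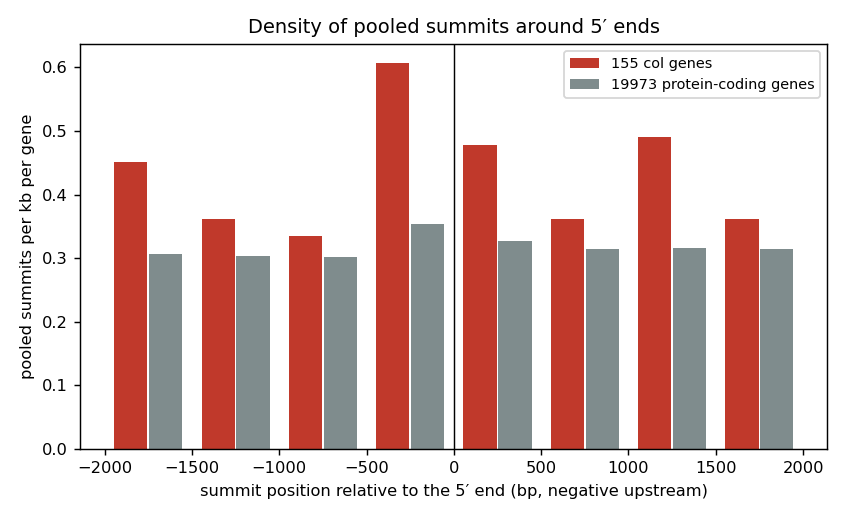
Pooled summits per kb per gene (vertical axis) in steps of 500 bp within 2000 bp of the 5′ end to either side (horizontal axis), for 155 col genes and 19973 protein-coding genes. The tallest bar, 0.606 for col genes, is the step just upstream of the 5′ end.

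By annotation, 83 of the 250 summits (33.2%) lay between genes, 101 (40.4%, 34.3 to 46.8) in coding exons, 51 (20.4%) in introns and 15 (6%) in UTRs of protein-coding genes. The other pooled regions had 34.2%, 33.9%, 27.2% and 4.73%. Of the 101 coding summits, 61 lay in the coding exons of col genes themselves. Those 61 windows of 101 bp had 55.0% ± 7.5 GC (SD, n = 61), against 42.4% ± 6.6 at other pooled regions in coding exons (SD, n = 10073), and 37.2% ± 7.2 at the 83 summits between genes (SD, n = 83). Their median signal was 17.7, against 16.99 between genes, and 2 of the 61 ranked within the first 1000, those of col-103 and col-51. How far base composition sets the signal in collagen exons was not tested.

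The nearest 5′ end was that of a member for 189 of 250 regions (75.6%) and that of another gene for the rest. For 27 of the 131 members with a region, the strongest one was nearest to a gene outside the family, as at col-62 and col-2.

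The share of regions with a GATA word was largest at the strongest ranks and smaller below, at col genes as at other regions. The sequences that follow are windows of 101 bases around summits upstream of col-93, col-80, col-173 and col-144, the regions besides that of col-167 that lay within 500 bp of a 5′ end, held WGATAR and were matched in both replicates. The intronic window of col-159, which held 2 words, is set beside them. Each is in ce11, 5′ to 3′ on the strand of the gene, with WGATAR on either strand in capitals.
col-93, chrIII:10985808-10985908, minus strand: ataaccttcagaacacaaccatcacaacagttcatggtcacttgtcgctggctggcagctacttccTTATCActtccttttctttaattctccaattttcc
col-80, chrII:10707037-10707137, plus strand: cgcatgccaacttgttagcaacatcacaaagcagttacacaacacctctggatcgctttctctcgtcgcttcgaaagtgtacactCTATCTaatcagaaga
col-173, chrX:6877508-6877608, minus strand: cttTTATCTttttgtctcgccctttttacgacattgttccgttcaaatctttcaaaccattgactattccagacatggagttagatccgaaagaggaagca
col-144, chrV:9160824-9160924, minus strand: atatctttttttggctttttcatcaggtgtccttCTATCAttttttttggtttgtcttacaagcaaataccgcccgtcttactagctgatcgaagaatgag
col-159, chrV:13200404-13200504, minus strand: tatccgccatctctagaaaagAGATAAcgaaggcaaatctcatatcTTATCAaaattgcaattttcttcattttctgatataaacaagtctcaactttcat

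Among pooled regions ranked 1 to 1000, 7 of 13 in member windows held WGATAR within 50 bp of the summit (53.8%, 25.1 to 80.8). The flanks, windows of equal length centred 500 bp to each side, held it in 2 of 26 cases (7.69%, 0.946 to 25.1). The other 987 regions of these ranks had 40.2% and their flanks 20.6%. The 7 were the regions of col-62, col-167, col-159 with col-160, col-80, col-76, col-93 and col-3, and those without a word included col-166, col-103, col-94, col-61 and col-2. The interval of the 13 regions includes the share of the other regions, so no difference between them was detectable.

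Farther down, the share in member windows was 25.6% at ranks 1001 to 5000 (11 of 43, 13.5 to 41.2) and 19.1% at ranks 5001 to 30000 (37 of 194, 13.8 to 25.3). Other regions had 23.7% and 20.5%. Over all ranks 55 of 250 member regions held the word (22.0%, 17.02 to 27.7), against 21.6% of the other 29750 regions, 16.4% of their own flanks and 20.6% of the other flanks.

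**Figure D5:**
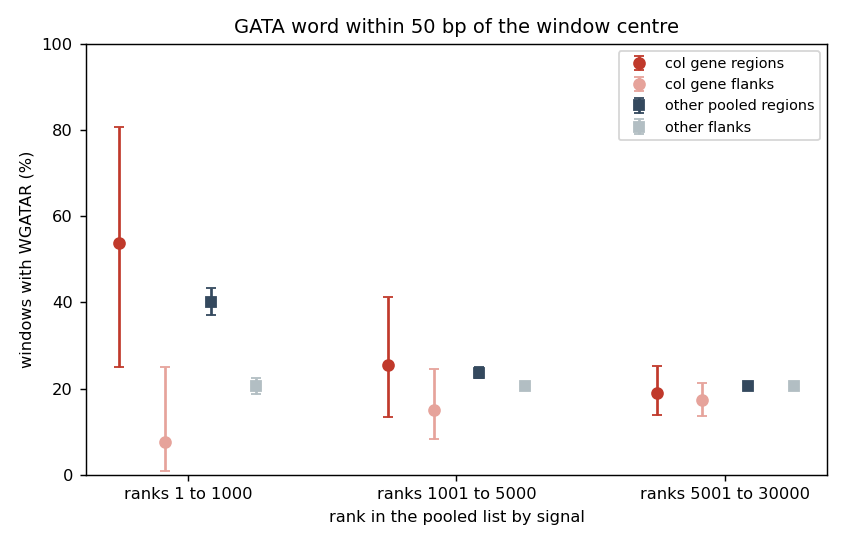
Share of windows (vertical axis, percent) with WGATAR within 50 bp of the centre, in 3 classes of rank in the pooled list (horizontal axis), at the summits and in the flanks 500 bp away, for col gene regions and for all other pooled regions. Bars are 95% exact binomial intervals, and the col gene share goes from 53.8% over 13 regions to 19.1% over 194.

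The share with the word differed by the place of the summit. Between genes, 27 of 83 member regions held WGATAR (32.5%, 22.6 to 43.7), against 24.5% of other regions between genes. In coding exons 10 of 101 did (9.90%, 4.85 to 17.5), against 18.6% of other coding regions. In coding exons of col genes themselves it was 3 of 61 (4.92%, 1.03 to 13.7), in windows whose GC content was the highest of these classes. Within 500 bp upstream of a member, 19 of 45 regions held the word (42.2%, 27.7 to 57.8), against 24.4% of 3264 regions so placed at any gene. That stretch was singled out after the values were seen, and the interval does not cover this choice. Without regard to peaks, 85.2% of members held the word in the 500 bases before the start, against 71.4% of all genes. The part of this in the share at summits was not tested.

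In this stretch, chosen after the values were seen, those 19 regions belonged to 20 members (12.9%, 8.06 to 19.2), against 4.23% of all genes. After col-62, col-167, col-80 and col-93 they included col-147 (24.9 pooled, rank 2417, 173 bp upstream, 20.1 in replicate 2 and no match in replicate 1) and col-173 (23.5 pooled, rank 3221, 22 bp upstream, 11.6 in replicate 1 and 10.8 in replicate 2). The lowest was col-106, at 13.5. In 5 of the 20 the region was matched in both replicates, namely col-167, col-80, col-93, col-173 and col-144. At col-95, col-43 and col-106 it was matched in neither.

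Beyond the 20 members of largest pooled signal, 3 had a strongest region that held WGATAR and was matched in both replicates. These were col-173, col-90 (23.7 pooled, rank 3140, 11.8 in replicate 1 and 11.6 in replicate 2), with its summit in a coding exon 553 bp downstream, and col-155 (22.2 pooled, rank 4438, 13.3 in replicate 1 and 10.9 in replicate 2), with its summit 1949 bp downstream. In all, 35 of the 131 members with a region had a strongest region with the word, and in 10 of them it was matched in both replicates. The same counts over all genes are not given here. Over all ranks, 22.0% of member regions and 21.6% of other regions held the word.

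Promoter sequence was also searched for GATA words without regard to peaks. From 250 bases before to 50 after the start, 97 of 155 member promoters held WGATAR on either strand (62.6%, 54.5 to 70.2), against 54.5% of all 19973. That background lies at the lower edge of the interval. In the 500 bases before the start the shares were 85.2% (78.6 to 90.4) and 71.4%, so the col genes held the word more often over the longer stretch. The word GATAAG, which overlaps WGATAR where A or T precedes it, stood in 33.5% (26.2 to 41.6) and 22.7% of these longer stretches. Their GC content was 35.7% ± 4.5 for members (SD, n = 155) and 34.1% ± 4.8 for all genes (SD, n = 19973). A word in a promoter is a match of letters and not a measured site.

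Members with and without a promoter word were not detectably different in binding. Of the 97 members with WGATAR in the shorter promoter, 12 had a region within the first 1000 ranks (12.4%, 6.56 to 20.6), against 3 of the 58 without (5.17%, 1.08 to 14.4), and the intervals overlap widely. The median strongest signal was 20.1 with the word (n = 82) and 18.8 without (n = 49). col-62 and col-103, both with an optimal peak, had no such word in that promoter, while col-166, col-167 and col-94 had at least 2.

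The other cuticle collagens, named for their mutant shape, gave 20 genes, of which none had an optimal peak, 4 had a region within the first 1000 ranks and 14 had a pooled region, where all genes had 1.39%, 5.29% and 79.2%. Their median signal was 18.1. The strongest, at 41.9 (rank 268, 12.6 in replicate 1 and 27.4 in replicate 2), lay just below the optimal set, 315 bp upstream of the annular furrow collagen gene dpy-10 and 1750 bp upstream of its neighbour dpy-2. bli-1, a collagen of the cuticle struts, shared the region of col-80 at 33.3, and dpy-9, another furrow collagen, had 31.3 (rank 788) at a summit 183 bp upstream with a WGATAR word within 50 bp of it.

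Among 11 genes of collagen processing and cross-linking, none had an optimal peak, 3 were within the first 1000 ranks, 10 had a pooled region and the median was 24.0, beside the same shares of all genes. These 3 were pdi-2, a subunit of prolyl 4-hydroxylase (35.9, rank 444), the procollagen protease gene dpy-31 (34.8, rank 497) and the peroxidase gene mlt-7 (31.7, rank 744), and each region held WGATAR. The pdi-2 region was nearest to C07A12.7. The 5 collagens outside the cuticle had none within the first 1000 ranks, with the type IV collagen gene let-2 the highest (27.7, rank 1396), followed by cle-1 (26.4, rank 1741) and col-99 (21.3, rank 5508). 4 of the 5 had a pooled region. Against the median of 18.9 over all genes with a region, the lists are too short for more than these values.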

How the data were processed

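ELT-3 ChIP-seq regions of 1 group with 2 biological replicates were used as deposited by the authors in narrowPeak lists (ce11). The signal column is a score in each deposited list, of unstated scale. Per the notes deposited with the samples, the list of each replicate came from its own alignments plus 1 further file not analysed here, the pooled list from both sets of alignments plus that file, and the optimal set from all these lists. The control experiment that the labels name was not analysed here. No aligner, peak caller or IDR threshold is given in the sources used. Lists in ce10 were not used here, because no coordinates were converted. The deposited summit lies at the middle of every region.

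Genes came from Ensembl release 115 (WBcel235, the same assembly as ce11), and sequences from the RefSeq copy of that genome. The members and lists were chosen with earlier results of these data known. Windows, matching within 100 bp, words and copies (BLAST 2.17.0, 95% identity or more over 100 bp) were computed with Python 3.11.15, pandas 2.3.3 and scipy 1.17.1, and were checked on simulated data. No p-values were computed, because 1 group of 2 replicates allows no comparison between conditions. Intervals are 95% exact (Clopper-Pearson) and cover counting error only, and read depth is unknown. Named genes were those with an optimal peak, the 20 members of largest pooled signal, up to 10 further members with a WGATAR word matched in both replicates, up to 5 shared pairs, the 3 members whose scores in the replicate lists had the ratio farthest from 1, 6 reporter or target genes, and the 3 strongest genes of each other list. Other names stand in counts, and were chosen after their values were seen. The sequences of 2 of the 5 optimal peaks at members are not reported here. Alternatives changed windows, lists, distances and words.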

Additional observations from a re-analysis of the deposited data

How the results depend on the processing

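Of 34 other settings over 6 results, 17 were classed as unchanged, as were both settings added after the data were seen. Counts had to stay within 1.5 times the main count, and shares within the main interval. For the median signal, which has no interval here, only the window of 2 kb alone was classed as unchanged. The optimal count of 5 fell to 1 among the stronger optimal peaks (those above the median of the set). It rose to 15 among the 1000 strongest regions, which reached 5.29% of all genes. With replicate 2 left out it was 2 and with replicate 1 left out 3, against 1.31% and 1.47% of all genes. The 131 members with a pooled region became 47 among the 5000 strongest regions, which reached 23.4% of all genes. They became 73 from 1000 bp upstream to 200 bp downstream, and the 40 with both replicates became 16 in that shorter window. All-gene shares for the stronger optimal peaks and the shorter window are not given here. The median signal of 19.4 became 18.1 in the shorter window and 18.9 with the nearest gene alone. It became 11.5 to 12.04 with each replicate left out, on lists whose scores have their own scale. WGATAR at summits, 22.0%, was 28.4% in the shorter window, for which no value of other regions is given. It was 10.4% within 25 bp and 35.6% within 100 bp, where other regions had 11.4% and 38.3%. GATAAG stood at 5.2%, against 5.52% at other regions. In promoters WGATAR went from 62.6% to 85.2% over 500 bases, and GATAAG stood at 23.2% (16.7% of all promoters). The cause of these changes was not tested. No paired analysis was possible because there was 1 group. Unknown read depth limits what low regions can show.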
